A study of Mus musculus with 3 samples.

Results

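The miR-127 family of the imprinted Dlk1-Dio3 domain was described in small RNA libraries of extracellular vesicles (EVs), membrane-bound particles released by cells, that were isolated from the testis of male C57/BL6 mice at postnatal day (PND) 7. Each of the 3 libraries came from EVs pooled from 10 mice, and all belonged to 1 condition, without a control. The sample titles carry the word treated, whereas the source names EVs isolated from testis. RNA outside the vesicles had been digested before extraction. The members were all miRNA identifiers of 12 precursors (mir-127, mir-136, mir-337, mir-370, mir-431, mir-433, mir-434, mir-493, mir-540, mir-665, mir-673 and mir-770), and they made up 20 of the 805 miRNA identifiers listed in the count tables. The word family stands here for this set, a genomic cluster grouped by position and not by sequence. The family had been selected on the measured counts of these same libraries, in which mmu-miR-127-3p stood out, so the levels below are a description and carry no test. With 3 libraries of the same condition, mean ± SD gives the spread between pools, and the smallest p of an exact sign-flip test would be 0.25.

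A miRNA precursor folds into a hairpin, and each side of its stem can give a mature miRNA, named the 5p and the 3p arm. The bases 2 to 8 of a mature miRNA, its seed, lead its pairing with target RNAs. The Dlk1-Dio3 domain is imprinted: its miRNAs and long non-coding RNAs (Meg3, Rian, Mirg) are made from the maternal chromosome, and the protein-coding genes Dlk1 and Rtl1 from the paternal chromosome. Rtl1 is a retrotransposon-derived gene needed in the placenta, and miR-127 and miR-136 are known to guide the cleavage of its mRNA, to which they are antisense.

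The sequences of miR-127-3p, the most abundant member, and of its partner arm are shown first, followed by those of the other arms that lie antisense to Rtl1 and had counts in every library as a mature or a hairpin entry, and of the 3 most abundant members that lie outside Rtl1. Mature sequences are RefSeq entries on GRCm38.p6, written 5′ to 3′ with the seed in capitals.
mmu-miR-127-3p: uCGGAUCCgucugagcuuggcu
mmu-miR-127-5p: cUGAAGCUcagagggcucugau
mmu-miR-434-3p: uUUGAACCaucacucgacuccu
mmu-miR-434-5p: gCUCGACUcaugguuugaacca
mmu-miR-136-5p: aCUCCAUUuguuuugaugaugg
mmu-miR-136-3p: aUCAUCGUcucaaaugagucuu
mmu-miR-431-5p: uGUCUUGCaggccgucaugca
mmu-miR-433-3p: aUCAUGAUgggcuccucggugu
mmu-miR-337-5p: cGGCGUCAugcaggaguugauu
mmu-miR-370-3p: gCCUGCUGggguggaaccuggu
mmu-miR-540-3p: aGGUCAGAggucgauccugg

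In the hairpin of Mir127 (GRCm38.p6, chr12:109592846-109592915, plus strand, 70 bases) miR-127-5p takes the bases 9 to 30 and miR-127-3p the bases 43 to 64. The arms are in capitals.
Mir127: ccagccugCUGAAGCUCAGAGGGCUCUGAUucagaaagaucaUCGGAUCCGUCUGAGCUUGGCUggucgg
The stretch of the Rtl1 transcript that lies opposite miR-127-3p, in a coding exon, is its exact reverse complement (chr12:109592888-109592909, minus strand). The bases that face the seed are in capitals.
Rtl1 site: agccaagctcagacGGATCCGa

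RefSeq annotates 24 mature arms for the 12 precursors. All 20 listed identifiers matched an annotated arm, and 4 arms (miR-770-5p, miR-673-3p, miR-540-5p and miR-665-5p) were in no library. No seed was shared among the 24 arms, so that the family falls into as many seed groups as arms. Outside the family, the seed of miR-540-3p was shared with miR-6915-5p, counted 17 times in replicate 1 only, and that of miR-370-5p with miR-1193-3p, a miRNA of the miR-379/miR-410 cluster that had 17, 35 and 47 mature counts. The seed of miR-673-5p was shared with miR-6985-3p, which was in no library. The arms were 19 to 26 bases long with a GC content of 36.4% to 72.7%, and 8 of the 24 began with U.

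All 12 precursors lie on the plus strand of chromosome 12 and span 54.6 kb. The annotation placed 5 of them, Mir431, Mir433, Mir127, Mir434 and Mir136, within 4.94 kb opposite the coding exon of Rtl1, and the reverse complements of their 10 mature arms each occurred in the 6358-base Rtl1 transcript. For the other 7 precursors no arm had its complement there. Mir770 lies in an exon of a Meg3 transcript and Mir673, Mir493, Mir337, Mir540 and Mir665 lie between Meg3 and Rtl1. Mir370 lies in an intron of Rian, 25.4 kb downstream of Mir127. The name Rtl1-antisense therefore holds by position for 5 of the 12 precursors only.

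The libraries held 25716952, 26002463 and 27939308 clean reads, of which 870967, 1005836 and 966468 were counted on mature miRNAs and 493345, 612122 and 577529 on entries typed hairpin. Levels are given as CPM, counts per 1000000 mature counts (or, for hairpin entries, per 1000000 hairpin counts) of the same library. The sources used here do not define the hairpin type, whose entries carry the names of arms, so the types are given apart. A count of 0 allows up to 3 counts, or 3.44 CPM of mature counts in replicate 1, where this limit was highest. Intervals and limits cover counting error only. The tables hold small RNAs and no mRNAs, so that marker genes of the testis could not be examined.

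miR-127-3p was the most abundant mature miRNA of every library. It had 274128, 235817 and 224370 mature counts, or 314740, 234449 and 232155 CPM. Replicate 1 was the highest, and it was also the library with the fewest mature counts, whose part in this level was not tested. The mean was 260448 ± 47032 CPM (SD, n = 3). The second entry was let-7c-5p in each library, with 88594, 106706 and 115034 counts, and miR-127-3p exceeded it by 3.09-, 2.21- and 1.95-fold. As a hairpin entry miR-127-3p again ranked first in every library, with 124116, 114897 and 104119 counts and a mean of 206522 ± 39198 CPM of hairpin counts. Both types together were 1.36% ± 0.187 of the clean reads.

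The other mature members were far below it. By mean level miR-434-3p came next, which lies 1.66 kb downstream, with 559, 722 and 653 CPM. miR-127-3p had 563, 325 and 356 times its mature counts, a mean of 414-fold ± 129. In replicate 1 miR-337-5p was the next member, and over the next member of each library the fold was 364 ± 43.7. Against all other mature members added together, miR-127-3p was 101-fold ± 14.7 more abundant. It held 99.0% ± 0.155 of the mature counts of the family and 97.4% ± 0.795 of the hairpin counts. The family was thus carried by a single arm in each of the 3 libraries, as the plot of member levels shows.

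**Figure D1:**
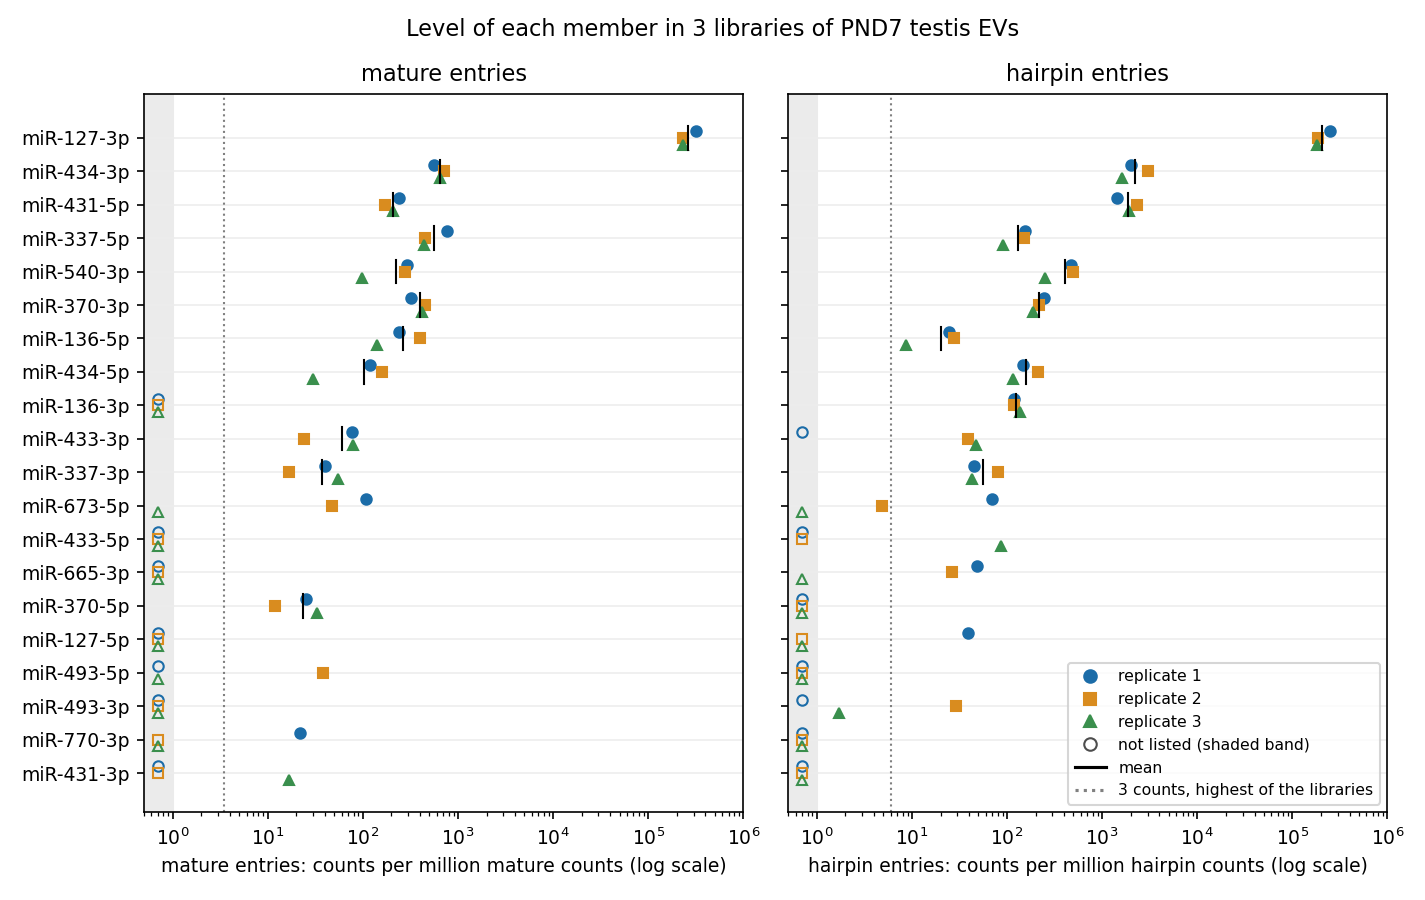
Level of each of the 20 members in the 3 libraries, as CPM of mature counts (left) and of hairpin counts (right), on log scales. Each point is a library, vertical bars are means for members listed in all libraries, open points in the shaded band were not listed, and the dotted line marks 3 counts in the shallowest library. miR-127-3p lies between 232155 and 314740 CPM on the left, and every other mature member stays below 1000 CPM.

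Among the arms antisense to Rtl1, miR-434-3p (645 ± 81.6 CPM) stood above miR-136-5p, miR-431-5p, miR-434-5p and miR-433-3p. miR-136-5p had 210, 405 and 136 mature counts, a mean of 261 ± 132 CPM, with replicate 2 the highest. miR-431-5p had 209, 172 and 201 counts, a mean of 206 ± 34.5 CPM, so that its libraries lay closer together. The 5p arm of mir-434 was found at 104, 161 and 29 counts, a mean of 103 ± 66.5 CPM, and it was lowest in replicate 3. miR-433-3p had 67, 24 and 76 counts, a mean of 59.8 ± 31.1 CPM, and was lowest in replicate 2. The last arm of this group with any mature count was miR-431-3p, listed at 16 counts in replicate 3 only. miR-127-5p, miR-136-3p and miR-433-5p had no mature entry.

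Of the members outside Rtl1, miR-337-5p was the most abundant, with 765.8, 453.4 and 444.9 CPM and a mean of 555 ± 183 CPM. miR-370-3p from Rian had 279, 457 and 406 counts (398 ± 69.6 CPM), and miR-540-3p, encoded 194 bases downstream of mir-337, had 252, 282 and 94 counts (222 ± 108 CPM). These 3 overlapped in range with the Rtl1-antisense arms next to them in the order. miR-337-3p (37.3 ± 19.1 CPM) and miR-370-5p (23.4 ± 10.7 CPM) were the minor partners of abundant arms and were listed in every library. miR-673-5p was listed at 95 and 48 counts in replicates 1 and 2 and not in replicate 3. miR-493-5p was found in replicate 2 only, with 38 counts, and miR-770-3p in replicate 1 only, with 19 counts. mir-665 had no mature count.

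Among the 11 mature members listed in every library, ordered by mean level, the libraries of neighbours overlapped except at 2 places. miR-127-3p lay above miR-434-3p by 8.65 ± 0.43 on the log2 scale, and miR-431-5p lay above miR-434-5p by 1.30 ± 1.37, a difference whose SD was larger than its mean and which was 0.55 without replicate 3 and 1.90 without replicate 2. Nearness to Mir127 did not order the levels: mir-433, the next precursor upstream, had 59.8 ± 31.1 CPM over both arms and mir-370, the farthest downstream, had 422 ± 66.2 CPM. The 6 mature entries antisense to Rtl1 other than miR-127-3p summed to 1281 ± 180 CPM (1077, 1488 and 1089 counts), and the 8 entries of the other 7 precursors to 1308 ± 261 CPM (1369, 1310 and 1015 counts), so that the groups overlapped. In hairpin entries the same groups had 4472 ± 1076 and 869 ± 259 CPM and did not overlap, with miR-434-3p and miR-431-5p as the largest entries.

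**Figure D2:**
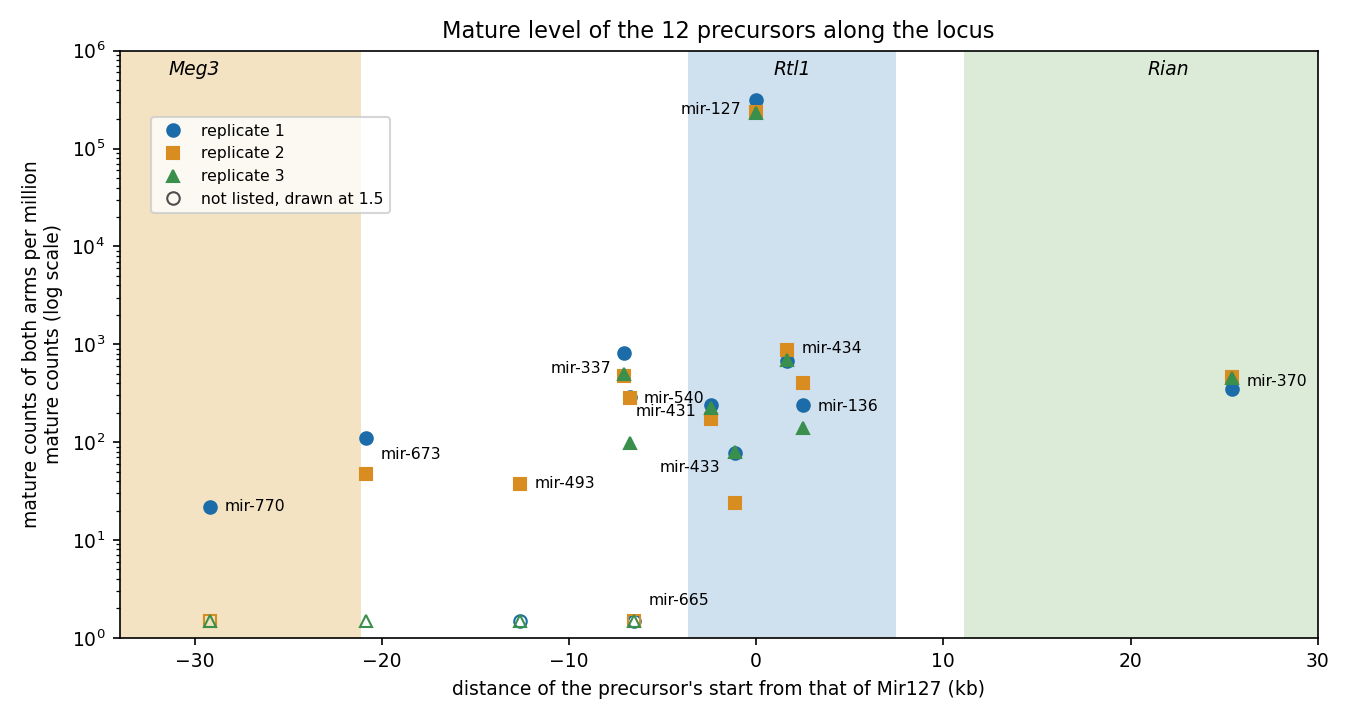
Mature level of each of the 12 precursors (both arms added, CPM, log scale) against its distance from Mir127 in kb, with 1 point per library and open points for precursors that were not listed. Shading marks the gene bodies of Meg3, Rtl1 and Rian. mir-127 stands above all others, and the points of mir-434, inside Rtl1, and mir-337, upstream of it, overlap in range.

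Detection differed among members. Of the 15 mature entries, 11 (73.3%) had 10 counts or more in every library, against 272 of all 604 mature entries (45.0%) and 27 of the 52 of the miR-379/miR-410 cluster (51.9%), the larger miRNA cluster farther downstream in the same domain. No mature member was listed below 12 counts. For 3 of the 15 (20.0%) there were 10 counts or more in 1 library and no entry elsewhere, against 122 of 604 (20.2%), so that their share was near that of all entries. Among the 11 members, the ratio of the highest to the lowest library had a median of 2.78 (1.29 to 5.33), and over the 272 entries it was 1.73. Most members are of low abundance, and below 1000 CPM the medians were 2.82 for 10 members and 2.13 for 201 entries. Counts of the 11 members differed between libraries by more than counting error, with a chi-square per degree of freedom of 22.7 to 35.8 over the 3 pairs of libraries. It was 23.5 to 34.5 over the 10 without miR-127-3p and 96.6 to 187 over the 272 entries. Expected counts came from the totals of each set itself, so each value covers only the split of counts within its set. The change between libraries in the family's share of all mature counts does not enter. The values of the members and of the 272 entries therefore cannot be set against each other.

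The 16 hairpin entries of the family followed another order below miR-127-3p. miR-434-3p had 1002, 1845 and 930 hairpin counts (2218 ± 720 CPM of hairpin counts) and miR-431-5p had 713, 1407 and 1095 (1880 ± 427 CPM), and these arms antisense to Rtl1 overlapped in range. They lay above miR-540-3p, which had 235, 300 and 144 hairpin counts, in every library. miR-370-3p (121, 132 and 108 counts), miR-434-5p (72, 131 and 67 counts) and miR-337-5p (76, 93 and 52 counts) came next. miR-337-3p, the partner arm of miR-337-5p, had 22, 49 and 25 hairpin counts. Of the 16, 9 had 10 counts or more in every library, against 324 of all 743 hairpin entries (43.6%). The 5 identifiers with a hairpin entry and no mature entry were miR-127-5p, miR-136-3p, miR-433-5p, miR-493-3p and miR-665-3p, and only miR-136-3p among them was listed in all libraries. The lack of a mature entry was common: the 20 members had 15 mature entries, and all 805 identifiers had 604. miR-665-3p had 24 and 16 hairpin counts in replicates 1 and 2, and miR-493-3p had 18 and 1 in replicates 2 and 3. The ratio of the highest to the lowest library had a median of 1.71 over the 9 entries and 1.80 over the 324.

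Arms were compared within libraries, where scaling does not enter. The 5p arm of mir-127 was in no library as a mature entry. Taking a limit of 3 counts per library for it, the 3p arm had at least 91376, 78606 and 74790 times its mature counts. That limit covers counting error only, so these are no strict lower bounds. Of all 604 mature entries, 211 (34.9%) had no count in some library and 10 counts or more in another, as did 4 of the 15 members. miR-127-5p appeared once, as a hairpin entry of 19 counts in replicate 1, where the 3p arm had 398244 counts over both types, a ratio of 20960 with an exact 95% counting interval of 13422 to 34814. The 3p arm also prevailed in mir-370, with 4.19 ± 0.92 on the log2 scale of mature counts, and in mir-434, with 2.95 ± 1.30, or 2.20 without replicate 3, in which miR-434-5p was lowest. In mir-337 it was the 5p arm that prevailed, with a log2 ratio of 3p to 5p of -4.01 ± 0.89. The order of the arms was the same in all libraries for these precursors.

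In all 38 precursors of the tables that had 10 mature counts or more of both arms in every library, the 3p arm was higher in 16 and the median size of the log2 ratio was 3.41, with 11.1 as the largest, so mir-370, mir-337 and mir-434 were near the median. With both types added, the 3p arm was higher in every library with counts for 7 of the 12 precursors and the 5p arm for 4 (mir-136, mir-337, mir-431 and mir-673), and mir-493 was mixed. This tally had no minimum count, and mir-770 entered it with 19 counts in replicate 1 only. Among all precursors with 10 counts or more of both arms in every library, types added, the 3p arm was higher by mean in 27 of 69. The 2 tallies follow different rules and cannot be set against each other. For mir-431 the 5p arm had 922, 1579 and 1296 counts, and the 3p arm had only the 16 counts of replicate 3. For mir-540 only the 3p arm was listed. mir-433 was represented by its 3p arm in all libraries, with 50 counts of the 5p arm in replicate 3.

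mir-136 differed between the types. As mature entries it had the 5p arm only, with the 210, 405 and 136 counts given above. Its hairpin entries were mostly of the 3p arm, with 58, 73 and 79 counts for miR-136-3p, or 125 ± 10.6 CPM, beside 12, 17 and 5 counts for miR-136-5p. Added over the types, the 5p arm was the higher in each library, with a log2 ratio of 3p to 5p of -1.77 ± 0.86.

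**Figure D3:**
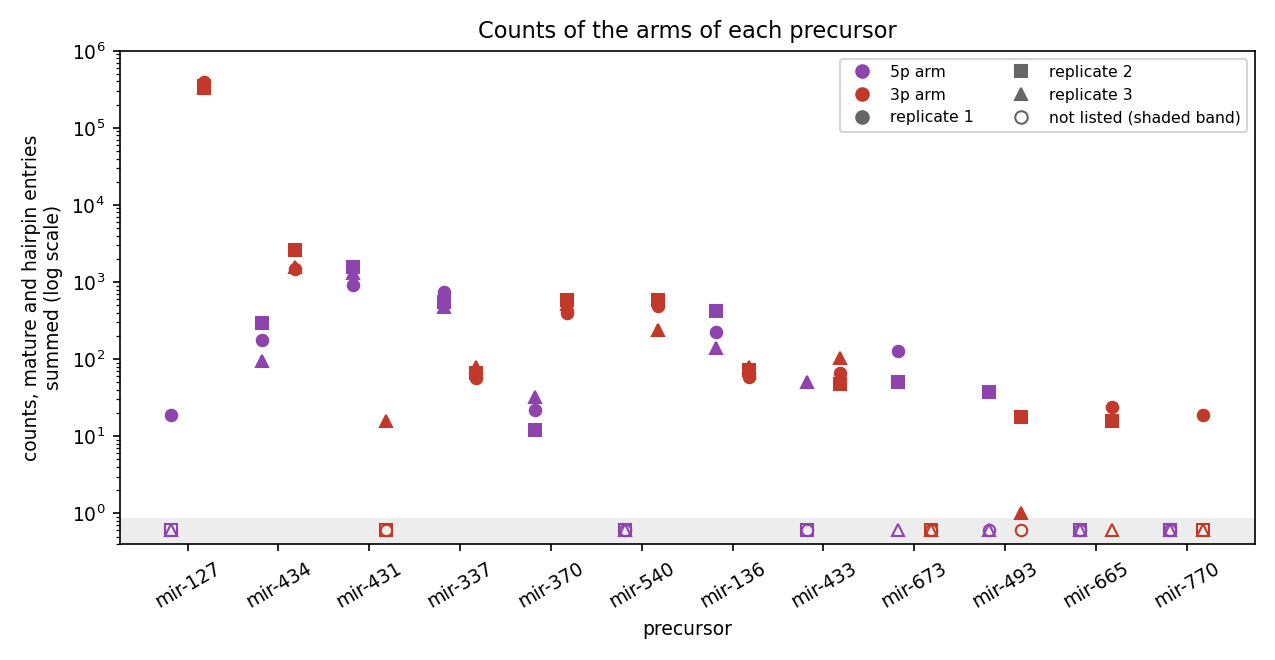
Counts of the 5p (purple) and 3p (red) arm of each precursor, mature and hairpin entries added, on a log scale, with the shape of a point giving the library and open points in the shaded band arms that were not listed. The 3p arm of mir-127 had 398244 counts in replicate 1 against 19 of the 5p arm, and the 5p arm was the higher in mir-431, mir-337, mir-136 and mir-673.

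The share of the counts of a miRNA that was typed mature also varied within the family. Of 221 miRNAs with 10 counts or more of both types in every library, 8 were members. Over all 221, the log2 ratio of mature to hairpin counts had a median of 0.27 and quartiles of -0.85 and 1.41. For miR-127-3p it was 1.14, 1.04 and 1.11, a mean of 1.10 ± 0.05, which lay inside these quartiles and was the steadiest of the members. Over all mature and hairpin counts of a library, those of miR-127-3p included, the log2 ratio was 0.82, 0.72 and 0.74. The mean of that ratio, 0.76 ± 0.05, was nearer to the value of miR-127-3p than the median of 0.27 was, and its SD was alike. miR-127-3p also had by far the most counts of the members, and SDs as low as 0.022 occurred outside the family. miR-337-5p (2.83 ± 0.46) and miR-370-3p (1.64 ± 0.38) had mature counts above hairpin counts in every library and lay above the upper quartile. Mature counts were higher in every library for 104 of the 221 miRNAs and for 3 of the 8 members, miR-127-3p among them. miR-434-3p (-0.98 ± 0.40) and miR-431-5p (-2.42 ± 0.63) had more hairpin than mature counts in every library. Hairpin counts were higher in every library for 66 of the 221 miRNAs (29.9%), so members of this kind were no exception. miR-337-3p (0.08 ± 1.40), miR-434-5p (-0.13 ± 0.94) and miR-540-3p (-0.20 ± 0.37) changed sign between libraries.

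**Figure D4:**
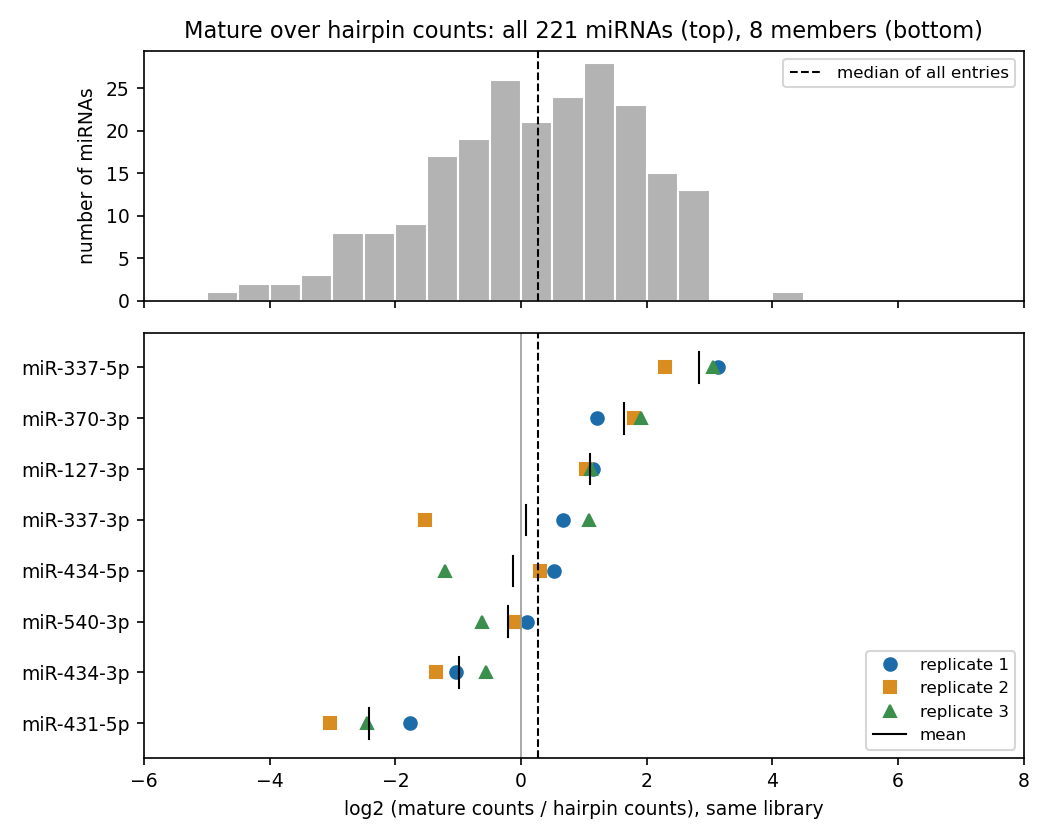
Log2 ratio of mature to hairpin counts, as a histogram of the means of all 221 miRNAs with 10 counts or more of both types in every library (top) and for the 8 members among them (bottom, 1 point per library, vertical bars for means). The dashed line is the median of all 221 at 0.27, and miR-127-3p lies to its right at 1.10 with its libraries close together.

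As a whole, the family held 31.8%, 23.7% and 23.4% of the mature counts, a mean of 26.3% ± 4.72. Exact binomial (Clopper-Pearson) 95% intervals were 31.7% to 31.9%, 23.6% to 23.8% and 23.3% to 23.5%, far narrower than the gap between replicate 1 and the others. Of the hairpin counts it held 21.2% ± 3.89. Without miR-127-3p, the remaining members held 0.259% ± 0.0357 of the mature and 0.534% ± 0.120 of the hairpin counts.

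The miR-379/miR-410 cluster, with 52 mature entries, held 5.64%, 6.79% and 5.26% of the mature counts. The miR-127 family exceeded it by 2.49, 1.81 and 2.16 on the log2 scale, a mean of 2.15 ± 0.34, and by 2.03 ± 0.29 in hairpin counts. Without miR-127-3p the order was the reverse in every library, the miR-379/miR-410 cluster being higher by 4.51 ± 0.16 on the log2 scale. This comparison is unequal, as it sets the 14 remaining entries against all 52 of that cluster, whose own top entry was kept. The 5p arms of the let-7 and miR-98 family, a set of abundant miRNAs of many tissues, held 25.2%, 28.5% and 33.3% of the mature counts. The miR-127 family was above it in replicate 1 and below it in replicates 2 and 3, a log2 ratio of -0.15 ± 0.43, so that the order of these families was not settled by the libraries.

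**Figure D5:**
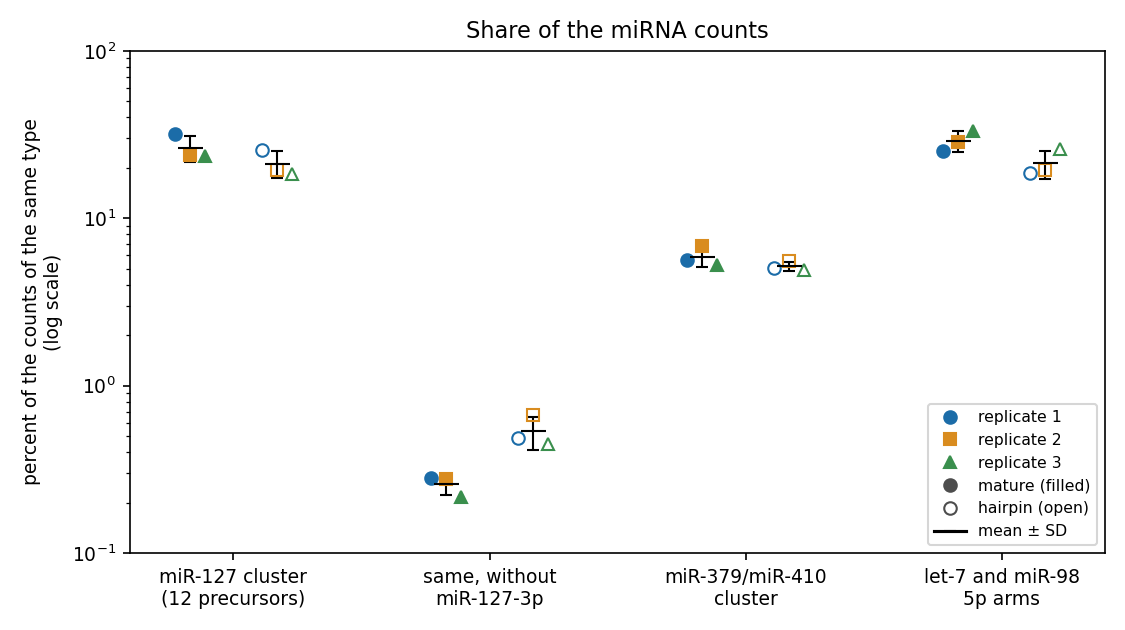
Share of the mature (filled) and hairpin (open) counts held by the miR-127 family, by the same family without miR-127-3p, by the miR-379/miR-410 cluster and by the let-7 and miR-98 5p arms, in percent on a log scale, with 1 point per library and mean ± SD. The family falls from 26.3% to 0.259% of mature counts when miR-127-3p is left out.

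Likeness of profile was measured as the Euclidean distance between centred log2 CPM over the 3 libraries, which for miR-127-3p were 0.29, -0.14 and -0.15. The 5 mature miRNAs outside the family that lay nearest among 261 candidates were miR-92a-3p (0.0477), miR-199b-5p (0.0607), miR-351-5p (0.0771), miR-138-5p (0.0779) and miR-30e-3p (0.133). Of the members, miR-431-5p (0.221) and miR-337-5p (0.276) were the nearest and miR-434-5p (1.72) the farthest, against a median of 0.757 over the 261 candidates. The points are libraries of 1 condition and share its scaling, so the distances are a description.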

How the data were processed

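Small RNA of PND7 testis EVs was sequenced in 3 libraries on the BGISEQ-500 platform. The authors mapped clean reads with Bowtie2 and cmsearch, gave each read to 1 class of small RNA with miRBase first, and deposited whole-number counts of reads per small RNA, without normalization. The labels name the build mm10; mismatches allowed are not given in the sources used here. The deposited percent of clean reads per class was not used. Members were all mature and hairpin entries whose identifier carries one of the 12 precursor numbers. The members and lists were chosen with earlier results of these data known, and no list tests were made. An entry that a table does not list was taken as 0. CPM used the total of the same type, ratios used counts of the same library, and 10 counts in every library was the minimum for ratios. The SDs are over libraries. Named miRNAs were all members and the 5 nearest profiles outside the family; the second most abundant entry, miRNAs sharing a member's seed and other RNAs of the locus were named after their values were seen.

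Scaling by edgeR 4.0.16 (TMM) and DESeq2 1.42.0 (size factors), clean reads as denominator, filtering, pooling, summing types and leaving out replicates were tried. Mature sequences, hairpins and positions came from RefSeq and the GRCm38 annotation. The distance and chi-square computations were tested on simulated data. R 4.3.3 and, under Python 3.11.15, SciPy 1.17.1 and pandas 2.3.3 were used, and matplotlib 3.10.9 drew the figures.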

Additional observations from a re-analysis of the deposited data

Results flagged for a closer look

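RNAs of the same locus outside the 20 members also had counts above 3, the limit that a count of 0 allows; there are no control samples to set them against. miR-341-3p, of a precursor in the same domain that is not among the 12, had 1582, 2047 and 1662 mature counts, above every mature member other than miR-127-3p in each library. miR-3071-3p, encoded on the strand opposite mir-136, had 30 and 91 mature counts in replicates 1 and 2 and no mature entry in replicate 3. Small nucleolar RNAs of the SNORD113 and SNORD114 families, which include those of Rian, had 3093, 1793 and 1708 counts, or 1.24% ± 0.106 of the snoRNA counts. The precursor class had its own entry named mir-127, which does not stand for the 12 precursors, with 6, 9 and 8 counts.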

How the results depend on the processing

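No paired analysis was possible because all libraries belong to 1 group. Of 52 alternatives for the main values, 49 moved them by less than 1 SD between libraries. Leaving out 1 of 3 libraries cannot move a mean by 1 SD, so those alternatives could not have counted as moved. The tally is therefore no measure of robustness for them, and their ranges are given below. The number of mature members with 10 counts or more in every library, 11, was 11 to 12 with a replicate left out, 11 with a minimum of 1 count, and 15 when 10 counts in any library sufficed. The mature level of miR-127-3p was 9253 per 1000000 clean reads and 150127 per 1000000 counts of all miRNA types, by the larger denominators, and its share of the family's counts was 98.5% with the types added. Under TMM it was 261978 CPM and under size factors 261528. Leaving out each replicate gave 233302 to 274594 CPM, a family share of 23.6% to 27.7% of mature and 19.0% to 22.5% of hairpin counts, a log2 ratio to the miR-379/miR-410 cluster of 1.98 to 2.32, and log2 arm ratios of -4.50 to -3.64 for mir-337, 3.67 to 4.46 for mir-370 and 2.20 to 3.34 for mir-434. Of 28 alternatives for single members, 5 changed sign, each for a mature-to-hairpin ratio near 0: miR-337-3p was -0.22 without replicate 1 and -0.43 without replicate 3, miR-434-5p was 0.12 with pooled counts and 0.41 without replicate 3, and miR-540-3p was 0.0057 without replicate 3. Over all replicates left out these ratios ran from -0.43 to 0.88, from -0.46 to 0.41 and from -0.35 to 0.0057, against 0.08, -0.13 and -0.20 with all libraries. The cause was not tested. With 3 pools of 1 condition, the SDs are themselves uncertain, and members listed in 1 library cannot be ranked at this depth.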

Other observations

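Some mature entries sit at very low counts and few lie just above them: 56, 45 and 74 entries had 1 to 4 counts, 9, 11 and 10 had 5 to 8, and 23, 27 and 12 had 13 to 16. Other precursor-class entries of the locus were uneven over the libraries, with 23 and 51 counts for mir-431 in replicates 1 and 2 and none in replicate 3, 48, 3 and 26 for mir-370, and 28 for mir-673 in replicate 1 only.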
